A study of Homo sapiens with 8 samples.

Results

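The 10 integrin subunit genes gathered around ITGA5, a reported target of miR-148b, were read from 18 probes of a human whole-genome Agilent array with 33446 probes. They were taken by name from the platform's gene annotation: the alpha subunit genes ITGA5, ITGAV, ITGA2, ITGA3 and ITGA6 and the beta subunit genes ITGB1, ITGB3, ITGB4, ITGB5 and ITGB8, 10 of 15971 named genes. Each gene is described by its probe with the highest mean over the 8 arrays, with the 8 further probes of 5 of the genes beside it. The cells were MDA-MB-231, an established human breast cancer line of mesenchymal character. One group of 4 arrays came from cells transfected with 75 nM of a miR-148b precursor, and the other group of 4 from cells transfected with a negative control, whose dose the labels do not give. The protocol names RNAiFect as the reagent and 48 h as the time after transfection, and all cells are of 1 line. A code number from 1 to 3 stands in every title and a plus mark in a few, and the labels explain neither. Code 1 stands on miR-148b replicates 1 and 2 and control replicate 1, and the plus mark on miR-148b replicates 2 and 3 and control replicate 3. Code 2 stands on miR-148b replicate 3 and control replicates 2 and 3, and code 3 on replicate 4 of both groups. Arrays of equal replicate number match in both marks for replicates 1, 3 and 4, but not for replicate 2. The labels call the arrays biological replicates without naming separate cultures, so p-values measure the spread between these arrays.

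Integrins are receptors in the cell membrane made of 1 alpha and 1 beta subunit, which bind proteins of the extracellular matrix outside the cell and link them to the actin cytoskeleton inside. The alpha subunit largely sets which ligand is bound, and the beta subunit carries most of the contacts with the cytoskeleton. The product of ITGA5 pairs with that of ITGB1 to form the main fibronectin receptor, which in breast cancer cells takes part in adhesion, migration and invasion. MicroRNAs lower the level or translation of messages through matches between their seed, the stretch at bases 2 to 8, and sites mostly in the 3′ untranslated part of a message.

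The sequences of miR-148b and of its relatives are shown because a message with a site for one seed carries it for all members that share that seed. The mature sequences come from RefSeq (GRCh38.p14), with the seed in capitals.
hsa-miR-148b-3p: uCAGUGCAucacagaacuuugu
hsa-miR-148a-3p: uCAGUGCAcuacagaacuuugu
hsa-miR-152-3p: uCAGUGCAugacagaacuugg
All 3 have the same seed, CAGUGCA, whose matching site in a message reads TGCACTG in DNA letters. Counted from 1 at the 5′ end of miR-148b-3p, miR-148a-3p differs by U9C and C10U, and miR-152-3p by C10G and U20G over the 21 positions they share. The hairpin from which miR-148b-3p is cut is given next, with the mature part in capitals, since the transfected precursor stands in for it.
MIR148B: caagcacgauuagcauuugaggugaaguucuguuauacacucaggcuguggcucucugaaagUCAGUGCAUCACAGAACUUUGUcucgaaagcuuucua
The hairpin lies on the plus strand at chr12:54337216-54337314, inside the bounds of the gene COPZ1, and ITGA5 lies on the same chromosome at chr12:54395261-54419266, 57.9 kb away. Message sequences of the integrins were not used here, so no target site is shown.

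The arrays held normalized intensities on a linear scale, with array medians of 370.2 to 403.6 and the same maximum, 243058, on all arrays. With 8 arrays the precision is limited by their number, and no detection flag was used, so no gene is called absent. Genes that mark MDA-MB-231 cells were bright: VIM lay above 99.8% of probes, AXL above 98.1% and CD44 above 97.5%. CAV1 lay above 97.3%, MSN above 96.1% and EGFR above 79.6%. The luminal marker ESR1 lay above 24.4%, the epithelial cadherin gene CDH1 above 24.7% and GATA3, of the same list, above 41.2%. The epithelial genes KRT19 and EPCAM lay above 99.0% and 79.1%. Of the leukocyte and blood marker list, 3 of 6 genes were measured, and their summed intensity ran from 156 to 220 on the miR-148b arrays and from 158 to 203 on the control arrays. PTPRC, the gene of the general leukocyte antigen, lay above 2.7% of probes, HBB above 12.8% and CD3E above 35.1%.

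ITGA5 was the member with the clearest separation between the groups. It read 353, 358, 336 and 453 on miR-148b replicates 1 to 4, against 651, 633, 461 and 750 on control replicates 1 to 4. Every miR-148b array lay below every control array, but the highest miR-148b array, replicate 4, and the lowest control array, replicate 3, were close. The means were 375 ± 52.7 with miR-148b and 624 ± 120 in control (SD, n = 4 each), a fold of 0.606 and a log2 difference of -0.72 (SE 0.20, 95% interval -1.18 to -0.27). In limma, a linear model fitted over all 33446 probes, its unadjusted p was 0.00607 and its p after Benjamini-Hochberg adjustment over all probes 0.908, so it did not pass the threshold of 0.05. It was the only member of the 10 with groups that did not overlap, where 2.42% of genes with a value on every array lay wholly below control. It was also the only one with an unadjusted p under 0.05, where 2.62% of genes had such a p and a lower level with miR-148b. In RNA from a whole culture, a lower level in every cell and a loss from some of the cells cannot be told apart.

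The difference in ITGA5 had the same sign within every code and every pair. Arrays of equal code differed by -0.87, -0.68 and -0.73 on the log2 scale within codes 1, 2 and 3. Within codes 1 and 2 the plus mark is uneven between the groups, and its part in these values was not tested. The pairs of equal replicate number that also match in code and plus mark, replicates 1, 3 and 4, differed by -0.88, -0.45 and -0.73, and the unmatched replicate 2 by -0.82. A fit that blocks on the code number gave -0.76 (SE 0.15, limma adjusted p = 0.505). A fit with code 1 and plus-mark terms gave -0.61 (SE 0.15, limma adjusted p = 0.283). The smallest pair difference was thus that of replicate 3, the pair whose arrays both carry the plus mark, and this rests on its control array, which at 461 was the lowest control array. ITGA5 has 1 probe on this array, of middling brightness (above 54.0% of probes), so no other probe could be set beside it.

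ITGB1, the beta chain with which the ITGA5 product pairs and a partner of many other alpha chains, did not follow it. Its brightest probe read 118097, 108751, 133869 and 145578 on miR-148b replicates 1 to 4, against 104706, 124657, 138218 and 138689 on control replicates 1 to 4. The groups overlapped almost fully, with means of 126573 ± 16370 with miR-148b and 126567 ± 15961 in control (SD, n = 4 each). The log2 difference was 0.00 (SE 0.18), with a 95% interval from -0.40 to 0.40. The 2 further ITGB1 probes stood at -0.05 (SE 0.30) and 0.14 (SE 0.37). The 2 partners were also set against each other as log2 ITGA5 minus log2 ITGB1 in each array. That difference was -8.38, -8.25, -8.64 and -8.33 on the miR-148b arrays, against -7.33, -7.62, -8.23 and -7.53 on the control arrays, so that no arrays overlapped. The group means differed by -0.72, with p = 0.0286 in an exact two-sided permutation test, the smallest that 70 arrangements of 4 against 4 arrays allow. With ITGB1 at 0.00, this is the ITGA5 difference again. The ITGA5 groups were already seen not to overlap, so a p at or near this minimum was to be foreseen and is no separate support. With the mean of all ITGB1 probes in place of the brightest, the difference was -0.75 with exact permutation p = 0.114, and with an offset of 50 added to all intensities it was -0.65 with p = 0.0571. Leaving out any 1 of the miR-148b arrays gave the same exact permutation p, 0.0571, with differences from -0.77 to -0.64.

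**Figure D1:**
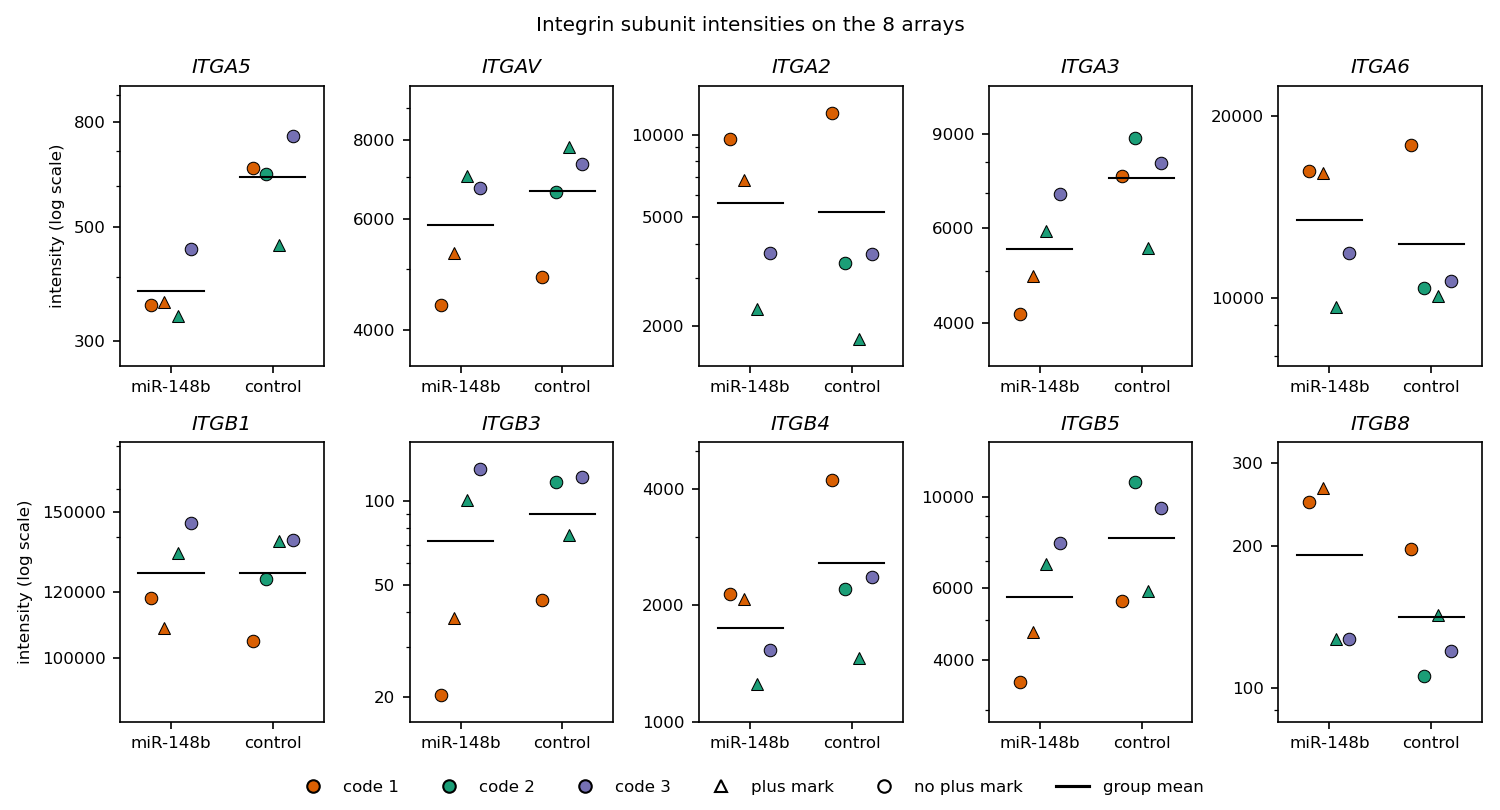
Normalized intensity (log axis) of each of the 10 integrin subunit genes on the 4 miR-148b arrays and the 4 control arrays, with 1 point an array, colour for the code number, triangles for the plus mark and a line at the group mean. ITGA5 is the only gene whose miR-148b arrays (336 to 453) all lie below its control arrays (461 to 750), while ITGA2, ITGA6 and ITGB8 are high and ITGAV, ITGB1, ITGB3 and ITGB5 low on the code 1 arrays of both groups.

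The other alpha subunit genes overlapped between the groups. ITGA3, whose product pairs with that of ITGB1 as a laminin receptor, read 4151, 4896, 5926 and 6950 on miR-148b replicates 1 to 4, against 7510, 8872, 5507 and 7956 on control replicates 1 to 4. Apart from control replicate 3, its control arrays lay above all miR-148b arrays, and the log2 difference was -0.45 (SE 0.23, limma adjusted p = 0.908). The matched pairs 1, 3 and 4 differed by -0.86, 0.11 and -0.20, and replicate 2 by -0.86, so its lower readings were those of replicates 1 and 2. ITGAV, an alpha chain for vitronectin and other ligands with the recognition motif arginine, glycine, aspartate, read 4392, 5309, 7030 and 6722 on the miR-148b arrays, against 4852, 6622, 7799 and 7323 on the control arrays. Its arrays followed the code, with all 3 code 1 arrays below the others, and the matched pairs differed by only -0.14, -0.15 and -0.12. The treatment difference of ITGAV was -0.18 (SE 0.23) without a block and -0.05 (SE 0.13) with a block on the code number. A second, dimmer ITGAV probe, above 34.8% of probes, went the other way, at 0.31 (SE 0.25). Blocked on the code number it stood at 0.47 (95% interval 0.08 to 0.86, limma adjusted p = 0.505). Its interval then left out 0, while that of the brighter probe, -0.37 to 0.27, did not. In that fit 3236 of 33443 probes had an unadjusted limma p under 0.05, against 1431 of 33446 without a block.

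ITGA6, the alpha chain shared by laminin receptors with either ITGB1 or ITGB4, read 16229, 16060, 9651 and 11865 on miR-148b replicates 1 to 4, against 17912, 10376, 10069 and 10663 on control replicates 1 to 4. The 3 highest arrays were those of code 1, whatever the treatment. The log2 difference of ITGA6 was 0.15 (SE 0.26) without a block and -0.04 (SE 0.12, 95% interval -0.33 to 0.24) with a block on the code number. ITGA2, the alpha chain of a collagen receptor with ITGB1, read 9631, 6832, 2300 and 3693 on the miR-148b arrays, against 12049, 3384, 1789 and 3663 on the control arrays. Its spread within a group was more than the difference between groups, which was 0.27 (SE 0.63) without a block, -0.24 (SE 0.26) with a block on the code number and 0.05 (SE 0.14) with code 1 and plus-mark terms. The 3 further ITGA2 probes stood at 0.42, 0.73 and 1.23 without a block, the last of them the dimmest (SE 0.61, unadjusted p = 0.0774 in limma), so the 4 probes gave values of 1 sign and unequal size there. Blocked on the code number, the 4 probes of ITGA2 stood at -0.24, -0.14, 0.18 and 0.72 and so split in sign, the dimmest again being the highest (SE 0.20, limma adjusted p = 0.505). With code 1 and plus-mark terms the 3 further probes stood at 0.22, 0.50 and 0.90, above 0 like the brightest. The 95% intervals of the last 2 left out 0, at 0.19 to 0.81 and 0.21 to 1.59 (limma adjusted p = 0.294 and 0.338). In that fit 4042 of 33446 probes had an unadjusted limma p under 0.05, against 1431 of 33446 without a block.

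Among the other beta subunit genes, ITGB4 had the largest difference once the codes were taken into account. ITGB4, the beta chain of hemidesmosomes, the anchors of epithelial cells to laminin, read 2136, 2078, 1253 and 1536 on miR-148b replicates 1 to 4, against 4224, 2207, 1466 and 2375 on control replicates 1 to 4. The groups overlapped, but in each code the miR-148b arrays lay below the control arrays on average, by -1.0, -0.52 and -0.63 on the log2 scale in codes 1, 2 and 3. The difference was -0.48 (SE 0.33, limma adjusted p = 0.908) without a block, -0.73 (SE 0.18, unadjusted p = 0.00691 and adjusted p = 0.505 in limma) with a block on the code number, and -0.57 (SE 0.15, adjusted p = 0.302) with code 1 and plus-mark terms. All 4 pairs of equal replicate number were below 0, from -0.98 for replicate 1 to -0.09 for replicate 2. Without control replicate 1, the highest array at 4224, the ITGB4 difference without a block was -0.21. Within code 1 the plus mark stands on a miR-148b array alone. Within code 2 it stands on miR-148b replicate 3 and control replicate 3 but not on control replicate 2. The matched pair of code 2, replicate 3, differed by -0.23. The part of the plus mark in the within-code values was not tested. Low unadjusted p-values were also more common over all probes in the fits that take the code into account. An unadjusted limma p under 0.05 was found for 3236 of 33443 probes with a block on the code number. It was found for 4042 of 33446 with code 1 and plus-mark terms, against 1431 of 33446 without a block.

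ITGB5, which pairs with ITGAV as a vitronectin receptor, read 3515, 4664, 6863 and 7742 on miR-148b replicates 1 to 4, against 5578, 10928, 5878 and 9396 on control replicates 1 to 4. Its log2 difference of -0.49 (SE 0.33) moved to -0.23 (SE 0.22) with code 1 and plus-mark terms, and the matched pairs 1, 3 and 4 differed by -0.67, 0.22 and -0.28. ITGB3, the other classical partner of ITGAV, was dim, above 27.2% of probes, and read 20.3, 38.1, 101 and 130 on the miR-148b arrays, against 44.5, 117, 75.6 and 122 on the control arrays. It was lowest on the code 1 arrays, and its difference of -0.56 (SE 0.61) stood at -0.18 (SE 0.29) with a block on the code number. ITGB8, a beta chain that pairs with ITGAV and takes part in releasing active TGF-beta, was dim as well and read 247, 265, 127 and 127 on the miR-148b arrays, against 197, 106, 143 and 120 on the control arrays. Its 3 high arrays were those of code 1, and its difference was 0.39 (SE 0.32) without a block and 0.18 (SE 0.15) with a block on the code number.

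Over the members, 0 of 10 passed the limma threshold for miR-148b minus control, with adjusted p from 0.908 to 1, and 0% of the 15971 genes passed it. Of the 10, 6 were lower and 4 higher with miR-148b, where ITGB1, at 0.00, is counted as higher. The members' median log2 difference was -0.32, against 53.4% of all genes lower and a median of -0.03. The other 9 members' 95% intervals all included 0, and they were wide: that of ITGA2 ran from -1.16 to 1.70 and that of ITGB3 from -1.94 to 0.82. Differences of the size seen for ITGA5 therefore lay inside the intervals of ITGA2, ITGA3, ITGB3, ITGB4 and ITGB5, and outside those of ITGAV, ITGA6, ITGB1 and ITGB8.

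**Figure D2:**
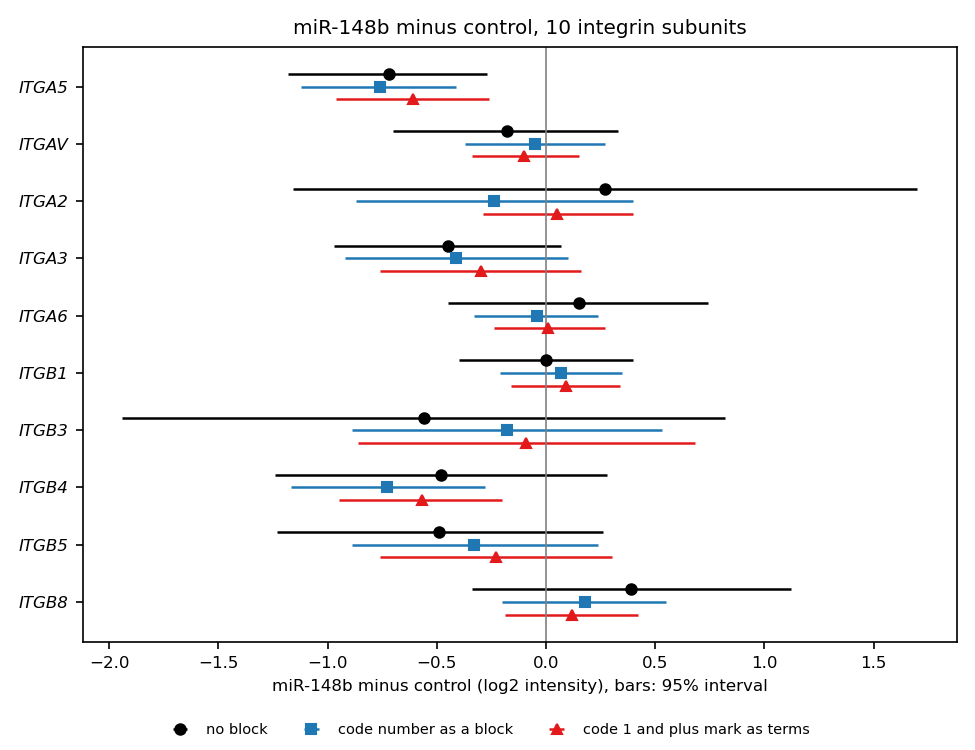
Log2 difference of miR-148b minus control for the 10 subunit genes (points) with 95% intervals (bars), without a block, with a block on the code number, and with code 1 and the plus mark as terms. The whole interval of ITGA5 lies below 0 in all 3 fits (-0.72, -0.76 and -0.61), and the whole interval of ITGB4 does so in the 2 fits that take the code into account. In those 2 fits 3236 of 33443 and 4042 of 33446 probes had an unadjusted limma p under 0.05, against 1431 of 33446 without a block. The intervals of ITGA2 and ITGB3 shorten most when the codes enter.

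More of the integrins passed the test for the code in the titles than for the treatment. In a fit with treatment and plus mark as further terms, 7 of 10 members differed between the code 1 arrays and the others, 4 higher and 3 lower. Over all genes the share was 32.2%, with 15.4% higher and 16.9% lower, so differences by code were common throughout. All of these p-values are limma's, adjusted over all probes.

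Higher on code 1 were ITGA2, ITGA6, ITGB4 and ITGB8. ITGA2 averaged 9504 ± 2611 on the code 1 arrays (SD, n = 3) and 2966 ± 869 on the others (SD, n = 5), a log2 difference of 1.63 (SE 0.14, limma adjusted p = 0.000622) without overlap. Its 3 further probes gave 1.78, 1.75 and 1.67, so the 4 probes of ITGA2 were alike here. ITGB8 averaged 236 ± 34.9 on the code 1 arrays (SD, n = 3) and 125 ± 13.5 on the others (SD, n = 5), a difference of 0.90 (SE 0.13, limma adjusted p = 0.0034), and its far dimmer probe stood at 0.92 (SE 0.41). ITGA6 averaged 16734 ± 1024 against 10525 ± 838, a difference of 0.66 (SE 0.11, limma adjusted p = 0.00591). The ITGA6 call ended when control replicate 1 was left out (adjusted p = 0.0557), whereas ITGA2 and ITGB8 kept theirs without any 1 array. ITGB4 had a difference of 0.76 (SE 0.15, limma adjusted p = 0.0134), although its arrays overlapped, 2812 ± 1223 on code 1 (SD, n = 3) against 1767 ± 493 on the others (SD, n = 5). Its call ended when control replicate 1 (0.105) was left out, as it did for miR-148b replicates 2 (0.0664) and 4 (0.0635) and without the treatment term (0.111).

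Lower on code 1 were ITGAV, ITGB3 and ITGB5, an alpha chain and 2 of its beta partners. ITGB3 averaged 34.3 ± 12.5 on the code 1 arrays (SD, n = 3) and 109 ± 21.6 on the others (SD, n = 5), a log2 difference of -1.70 (SE 0.32, limma adjusted p = 0.00979). Its second probe gave -1.21 (SE 0.21, limma adjusted p = 0.00713), and both probes were dim: with an offset of 50 the first stood at -0.93 and kept its call. Without miR-148b replicate 4 it did not pass (adjusted p = 0.0573). ITGAV averaged 4851 ± 458 on code 1 (SD, n = 3) against 7100 ± 478 on the others (SD, n = 5), a difference of -0.51 (SE 0.10, limma adjusted p = 0.012), and its dimmer probe stood at -0.45 (SE 0.13, limma adjusted p = 0.0484). The ITGAV call rested on control replicate 1 (0.0781 without it) and miR-148b replicate 4 (0.087 without it). ITGB5 averaged 4586 ± 1034 on code 1 (SD, n = 3) against 8162 ± 2016 on the others (SD, n = 5), a difference of -0.78 (SE 0.22) that only just passed (limma adjusted p = 0.0422). It missed the threshold without control replicates 1 (0.138), 2 (0.0741) or 4 (0.0825) and without miR-148b replicates 1 (0.0585), 3 (0.115) or 4 (0.139).

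ITGA5, ITGA3 and ITGB1 did not pass for code 1. ITGA5 averaged 454 ± 171 on the code 1 arrays (SD, n = 3) and 527 ± 164 on the others (SD, n = 5), and its difference was -0.08 (SE 0.15, 95% interval -0.43 to 0.27). ITGA3 stood at -0.31 (SE 0.19, limma adjusted p = 0.275). The brightest ITGB1 probe averaged 110518 ± 6868 on code 1 (SD, n = 3) and 136202 ± 7695 on the others (SD, n = 5) without overlap, a difference of -0.33 (SE 0.10) that missed the threshold (limma adjusted p = 0.0606). It passed with an offset of 50 (0.0259) and over the brighter probes alone (0.0253).

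**Figure D3:**
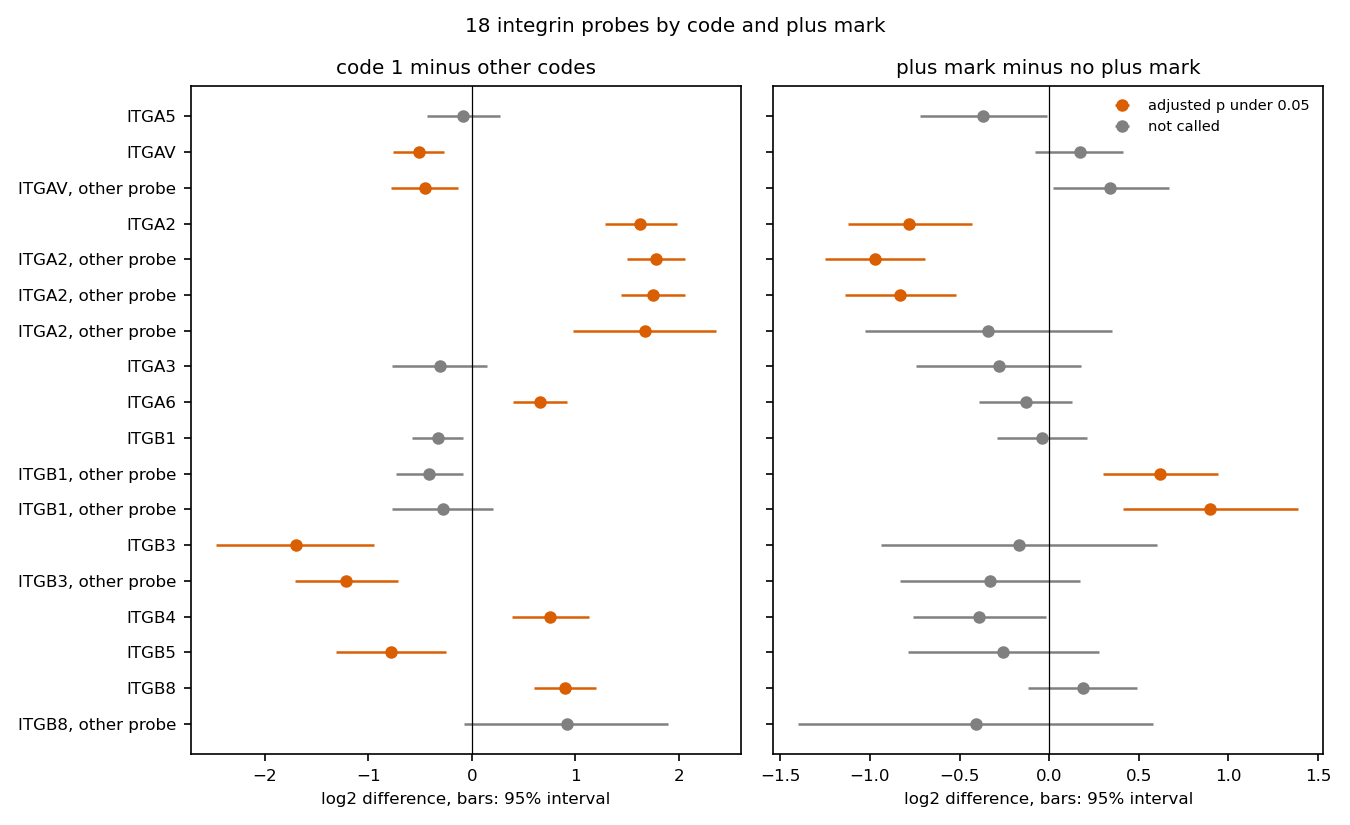
Log2 difference of code 1 minus the other codes (left) and of plus mark minus no plus mark (right) for the 18 integrin probes, with 95% intervals and colour for an adjusted p under 0.05, from fits that hold the other terms. The 4 ITGA2 probes lie together at 1.63 to 1.78 for code 1, and the 2 further ITGB1 probes stand at 0.62 and 0.90 for the plus mark where the brightest one is at -0.04.

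For the plus mark, 1 of 10 members passed, ITGA2, which was lower, where 13.4% of all genes passed and 7.71% were lower. ITGA2 averaged 3640 ± 2776 on the plus-marked arrays (SD, n = 3) and 6484 ± 4069 on the others (SD, n = 5). In the fit with treatment and code 1 as further terms, the log2 difference was -0.78 (SE 0.14, limma adjusted p = 0.0193). That fit pools codes 2 and 3. Outside code 1 the plus mark stands on code 2 arrays alone, so plus mark and code 2 against code 3 cannot be fully told apart. The ITGA2 difference did not pass without control replicate 3 (0.0903) or without miR-148b replicates 2 (0.0561), 3 (0.0519) or 4 (0.107). Further ITGA2 probes stood at -0.97 and -0.83, which passed (limma adjusted p = 0.00643 and 0.012), and at -0.34, which did not (0.439). ITGA5 stood at -0.37 (SE 0.15, limma adjusted p = 0.129) and ITGB4 at -0.39 (SE 0.15, limma adjusted p = 0.129). Without miR-148b replicate 1, ITGA5 passed at -0.48 (0.0454), ITGB4 at -0.52 (0.0362) and ITGB3 at -0.52 (0.0293).

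The probes of ITGB1 disagreed on the plus mark. The brightest averaged 126946 ± 15907 on the plus-marked arrays (SD, n = 3) and 126345 ± 16290 on the others (SD, n = 5), a log2 difference of -0.04 (SE 0.10). A second probe read 17649, 26411 and 30831 on miR-148b replicates 2 and 3 and control replicate 3, the plus-marked arrays, and from 13547 to 18664 on the others. Its groups overlapped, and it was 0.62 higher with the plus mark (SE 0.13, limma adjusted p = 0.0288). The third probe averaged 11512 ± 3510 on the plus-marked arrays (SD, n = 3) and 5930 ± 563 on the others (SD, n = 5) without overlap, a difference of 0.90 (SE 0.20, limma adjusted p = 0.0333). The annotation gives the brightest probe another transcript accession of ITGB1 than these 2 probes.

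**Figure D4:**
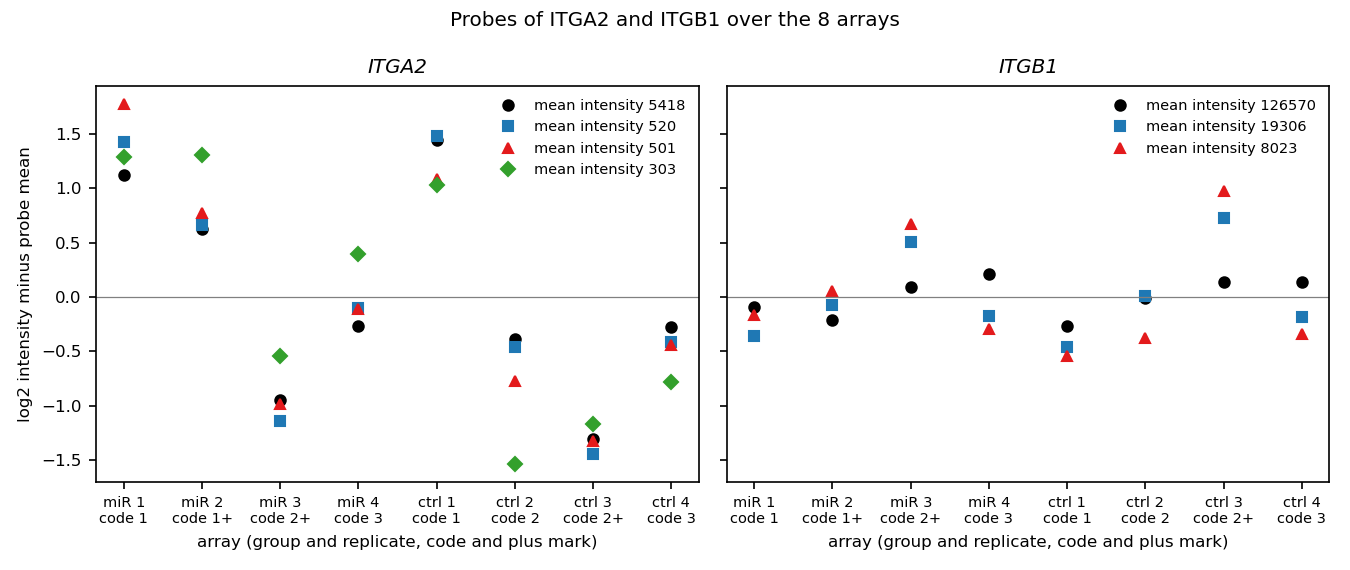
Log2 intensity minus each probe's own mean for the 4 probes of ITGA2 (left) and the 3 of ITGB1 (right) on the 4 miR-148b and 4 control arrays, each labelled with its code and plus mark. All ITGA2 probes are highest on the 3 code 1 arrays, while the ITGB1 probes part on miR-148b replicate 3 and control replicate 3, both of code 2 with the plus mark.

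The genes whose pattern over the 8 arrays was most like that of ITGA5 were none of the other integrins. Likeness was measured as the root mean square difference between log2 values centred on each gene's mean, among 9793 other genes with a value on every array and a mean above the median. The nearest was RTN4, which encodes a reticulon protein of the endoplasmic reticulum, at a distance of 0.103, with 12384 ± 1391 with miR-148b and 19509 ± 2262 in control (SD, n = 4 each). DGAT1, an enzyme of triglyceride synthesis, followed at 0.124, the lysosomal transporter gene ATP13A2 at 0.128, the galactosyltransferase gene B4GALT5 at 0.131 and CCDC92 at 0.132. Their log2 differences of miR-148b minus control were -0.65, -0.60, -0.64, -0.57 and -0.76 in that order. As they were picked for likeness to ITGA5 over the same arrays, values near its own follow from the choice. ITGA3 was the nearest integrin, ranked 129 of 9793 at 0.228, and ITGA2 the farthest of the members compared, ranked 9436 at 0.987. ITGB3 and ITGB8 were too dim to enter.

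Other genes of integrin adhesion, from lists written by function, gave 0 calls for miR-148b minus control in limma. Of the 16 further integrin subunit genes 12 were measured, 7 lower and 5 higher with miR-148b, with a median of -0.05. The lowest p among them were those of ITGAX, a leukocyte subunit, at -0.52 (SE 0.35), and ITGB7, another leukocyte subunit, at -0.37 (SE 0.34, and -0.09 with code 1 and plus-mark terms), both on dim probes. Matrix ligands had a median of -0.09 over 24 of 27 genes, 14 of them lower, and there the laminin chain gene LAMB2 stood at -0.65 (SE 0.16, unadjusted p = 0.00281 in limma) and LAMA2, a dim one, at 0.83 (SE 0.21, unadjusted p = 0.00344 in limma). FN1, which encodes fibronectin, the ligand of the ITGA5 product, read 6125 ± 1448 with miR-148b and 6548 ± 2357 in control (SD, n = 4 each), named here for that role. Adhesion adaptors and activators had a median of -0.10 over 26 genes, with 14 lower. Among them RAP1B, a small GTPase that activates integrins, stood at 0.66 (SE 0.24) and the tensin gene TNS2 at -0.59 (SE 0.24).

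Adhesion kinases and their substrates had a median of 0.00 over 13 of 14 genes, with PTK2, the focal adhesion kinase gene, at 2652 ± 847 with miR-148b and 1780 ± 528 in control (SD, n = 4 each), a difference of 0.56 (SE 0.29), and the adaptor gene CRKL at 0.23 (SE 0.15). PTK2 was also higher on the code 1 arrays, by 0.79 (SE 0.10, limma adjusted p = 0.0021), and its treatment difference was 0.35 (SE 0.10, limma adjusted p = 0.305) with code 1 and plus-mark terms. Of 5 genes of integrin inhibitors 3 were measured: SHARPIN at -0.33, DOK1 at 0.11 and ITGB1BP1 at -0.08. Tetraspanins and trafficking genes had a median of -0.09 over 13 of 14 genes, with 9 lower. CD151, a tetraspanin bound to laminin receptors, read 1877 ± 295 with miR-148b and 2749 ± 581 in control (SD, n = 4 each), a difference of -0.54 (SE 0.22, unadjusted p = 0.0409 in limma). CD82, a tetraspanin known as a suppressor of metastasis, stood at -0.90 (SE 0.39, unadjusted p = 0.0489 in limma), and at -0.54 with code 1 and plus-mark terms, with CD82 lower on code 1 as well (-0.95, limma adjusted p = 0.0324). Of the hemidesmosome partners of ITGB4, 2 of 3 genes were measured, PLEC, the plectin gene, at -0.29 (SE 0.38) and DST, the dystonin gene, at 0.06 (SE 0.18). For PLEC the value was -0.53 (SE 0.17, limma adjusted p = 0.505) with a block on the code number and -0.50 (SE 0.15, limma adjusted p = 0.33) with code 1 and plus-mark terms.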

How the data were processed

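The authors deposited 1 table, already normalized, of linear intensity for 33446 probes on 8 arrays, and all its columns were used. Per the labels' protocols, images of the 1-colour Cy3 arrays were quantified by Feature Extraction 10.5.1.1. Not given in the sources used here were the background treatment, normalization and probe filter. All arrays share 1 maximum and have near-equal medians, and values scaled in this way cannot show a shift of all genes. Log2 was taken with a pseudocount of 0, and empty cells, on 2864 probes, were left empty. Gene names came from the platform's GEO annotation and were brought to current RefSeq symbols through gene numbers: 24790 probes had 1 gene, 27 several and 8629 none listed.

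Differences were fitted by limma 3.58.1 under R 4.3.3 (lmFit, eBayes, two-sided, 6 residual degrees of freedom without a block and 4 with treatment, code 1 and plus-mark terms), with Benjamini-Hochberg adjustment over all probes and a threshold of 0.05. The code was tested on simulated data. Named genes were the members, the 5 genes nearest to ITGA5, and per list the 2 with the smallest p. Beyond these, marker genes were named as levels, FN1 for its role, and genes that passed for code 1 or the plus mark after their values were seen. The members and lists were chosen with earlier results of these data known. Alternatives covered offset, normalization, dim probes, probe averaging, blocks and leaving out arrays.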

Additional observations from a re-analysis of the deposited data

Results flagged for a closer look

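In 2 of 56 groups of arrays examined over the 18 integrin probes, 1 array lay apart from its group by more than Dixon's 95% critical value for the gap over the range (0.829 for 4 arrays, 0.71 for 5). Chance flags about 1 in 20 such groups. ITGA6 read 17912 on control replicate 1, the only control array of code 1, against 10069 to 10663 on the other control arrays. The third ITGB1 probe read 14776 on control replicate 3, the only control array with the plus mark, against 5147 to 5903 on the others.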

How the results depend on the processing

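For miR-148b minus control, 0 probes passed under each of the 19 alternatives run (smallest adjusted p from 0.166 to 1, with 1431 probes at an unadjusted p under 0.05 as reported). ITGA5 kept its direction in all 19, from -0.86 to -0.61, and from -0.86 to -0.63 when 1 array was left out. The replicate numbers did not pair the arrays throughout: deviations from the group means correlated at 0.61, -0.496, 0.589 and 0.664 for replicates 1 to 4 over 30582 probes. With the replicate number as a block, 0 probes passed and ITGA5 stood at -0.72 (limma adjusted p = 0.599). No member was called, and 13 of the members' 188 values changed sign. ITGAV was at 0.06 with the mean of a gene's probes and ITGB3 at 0.16 without the code 1 arrays. With the code number as a block ITGA2 was at -0.24 and ITGA6 at -0.04, and with replicates 1, 3 and 4 in a replicate block ITGA6 was at -0.02. ITGB1, at 0.00, was at -0.01 with median-centred arrays and -0.03 with quantile normalization. With 1 array left out, ITGA2 ran from -0.13 (without control replicate 3) to 0.79 (without control replicate 1) and ITGB1 from -0.09 to 0.07, ITGAV from -0.33 (without control replicate 1) to -0.05 (without miR-148b replicate 1), ITGA3 from -0.59 to -0.33 and ITGA6 from 0.04 (without miR-148b replicate 1) to 0.34 (without control replicate 1). ITGB3 ran from -0.96 (without miR-148b replicate 4) to -0.07 (without miR-148b replicate 1), ITGB4 from -0.72 (without control replicate 3) to -0.21 (without control replicate 1), ITGB5 from -0.66 to -0.28 (without miR-148b replicate 1) and ITGB8 from 0.21 (without miR-148b replicate 2) to 0.56. For ITGA5 minus ITGB1 the test with an offset of 50 (-0.65), with the mean of the probes (-0.75) and by sign flips over the replicate pairs (-0.72, exact permutation p = 0.125, the smallest that 4 pairs allow) no longer passed, and leaving out 1 array gave -0.91 to -0.61, not passing when a miR-148b array was left out (exact permutation p = 0.0571). For code 1, 9481 probes passed, 10421 with an offset of 50, and with 1 array left out from 4710 without control replicate 1 (4918 without miR-148b replicate 4 and 6187 without miR-148b replicate 3) to 10017, and 5458 genes with the mean of the probes. For the plus mark, 5515 passed, and with 1 array left out from 843 without miR-148b replicate 4 to 7996 without miR-148b replicate 1 (1763 and 2638 without miR-148b replicates 3 and 2, 1964 and 2941 without control replicates 3 and 4), and 1913 genes with the mean of the probes. Centring each array on its median left 1384 higher and 3582 lower for the plus mark, against 2346 and 3169 as reported, and quantile normalization left 1257 and 3642. The plus-marked arrays had the most empty cells, 977, 1011 and 1038, against 81 to 865 on the others. Their medians of the values present were also the highest, 401.5, 402.4 and 403.6, against 370.2 to 400.6. For code 1, ITGA5 ran from -0.21 to 0.03 with 1 array left out. For the plus mark, with 1 array left out, ITGA3 ran from -0.46 to 0.00, ITGB3 from -0.52 to 0.27 and ITGB5 from -0.50 to 0.12. ITGB1 was at 0.09 with quantile normalization and 0.49 with the mean of its probes, and ITGB8 at -0.11 with the mean of its probes. A replicate block could not be fitted for code 1 or the plus mark, as only replicate 2 differs in them, and ITGB3 and ITGB8 were below the filter on dim probes. The cause of these changes was not tested.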

Other observations

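Among the 12 further integrin subunit genes measured, 3 were higher and 0 lower on the code 1 arrays, and they are named here after their values were seen. ITGB2, the beta chain of leukocyte integrins, stood at 1.73 (limma adjusted p = 0.000636) and ITGA1, the alpha chain of a collagen receptor, at 1.53 (0.000872). ITGA10, another collagen-binding chain, stood at 2.43 (0.00896). Its probe was dim, above 21.5% of probes, and had no value on miR-148b replicate 3. PTPRC, the general leukocyte gene, was at 0.34 with a limma adjusted p of 0.319, on a very dim probe, above only 2.7% of probes. Of the markers of the line, CD44, a hyaluronan receptor, was lower on code 1 by -1.25 (limma adjusted p = 0.000936), and VIM and MSN were higher, at 0.46 (0.0308) and 0.68 (0.00763). PLEC, the plectin gene, was higher on code 1 at 1.02 (limma adjusted p = 0.0046), as was its partner ITGB4. For the plus mark, 5 genes of the adhesion lists passed. PXN, the paxillin gene, was at -0.71 (limma adjusted p = 0.0106) and FERMT2, a kindlin gene, at 0.52 (0.0244). NEDD9, a docking protein gene of focal adhesions, was at 0.63 (0.0406), the thrombospondin gene THBS1 at 0.50 (0.0462) and ITGB7 at -0.85 (0.04). These were 1 of 12 further subunits, 1 of 24 matrix ligands, 2 of 26 adaptors and activators and 1 of 13 kinases and substrates. The other adhesion lists had 0, and 13.4% of all genes passed. By list, the code 1 arrays had 3 higher and 4 lower of 24 matrix ligands, 4 higher and 5 lower of 26 adaptors and activators, 3 and 3 of 13 kinases and substrates, and 0 and 3 of 13 tetraspanins and trafficking genes, beside 15.4% and 16.9% of all genes.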
